A study of Mus musculus with 2 samples.

Results

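Glycolysis and hypoxia response genes were followed through the cells of silica-injured mouse lung. The 33 members were taken by name: genes for glucose uptake, the steps from glucose to lactate, lactate export, and genes that the hypoxia-inducible factor controls or that control it. All 33 had rows in both deposited tables, among 24417 genes found in either. Both groups were C57BL/6 mice given silica, a crystalline mineral dust that scars the lung, into the trachea at 400 mg/kg, and both were harvested on days 3, 7 and 21. WT mice had an intact Ccr2 gene, which encodes the receptor that draws monocytes out of the blood, and the CCR2KO group consisted of CCR2-/- mice. No group without silica was analysed here, so every level below is a level in silica-treated lung. Each genotype was run as 1 library on its own microwell cartridge, and genotype and cartridge therefore cannot be told apart. The WT library held 9 suspensions marked with hashtags (antibodies that carry a DNA barcode) and the CCR2KO library 8; they are called tags here, and each p-value measures the spread between tags, which need not be animals. No source used here ties a tag to a harvest day. Tags were therefore grouped by number into block 1 (tags 1 to 3), block 2 (tags 4 to 6) and block 3 (tags 7 to 9, with tags 7 and 8 in CCR2KO), and no label says that blocks of the same number hold the same day in both libraries. Over genes, tags in same-numbered blocks of the 2 genotypes deviated together more than tags in other blocks did (mean r 0.229 against -0.113 in alveolar macrophages and 0.261 against -0.127 in activated fibroblasts). These classes had the highest values. In the other classes described below, mean r in same-numbered blocks lay between 0.021 (classical monocytes) and 0.09 (Mmp12 Gpnmb macrophages). Deviations from a mean cancel out over tags, so the negative values are not a separate result.

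Glycolysis splits glucose into pyruvate in the cytosol and yields energy without oxygen; lactate dehydrogenase turns pyruvate into lactate, which monocarboxylate transporters carry out of the cell. When oxygen is short, or when immune signals stabilize it, the transcription factor HIF-1 (its alpha subunit is encoded by Hif1a) raises the transcription of most of these enzymes, of glucose transporters, and of its own brakes, the prolyl hydroxylases encoded by Egln1 and Egln3. Neutrophils are known to rely on glycolysis, whereas alveolar macrophages live in oxygen-rich, glucose-poor air spaces and are known for oxidative metabolism.

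HIF-1 binds DNA at a short core, ACGTG or GCGTG. The 250 bases before the start of transcription are printed for 6 members whose differences are described below, as the places where that core could stand. The sequences are those of RefSeq on GRCm38.p6, each window is the most upstream one listed for its gene, and none of these 6 overlaps an exon of GENCODE vM21 on the same strand. In GENCODE vM21, however, Gapdh, Ldha and Hif1a start further upstream, so their windows lie inside the annotated gene. Capitals mark ACGTG or GCGTG on either strand (CACGT or CACGC when read on the printed strand). The core can overlap the E-box CACGTG, which other factors bind.
Pgam1, phosphoglycerate mutase, chr19:41911621-41911870, plus strand: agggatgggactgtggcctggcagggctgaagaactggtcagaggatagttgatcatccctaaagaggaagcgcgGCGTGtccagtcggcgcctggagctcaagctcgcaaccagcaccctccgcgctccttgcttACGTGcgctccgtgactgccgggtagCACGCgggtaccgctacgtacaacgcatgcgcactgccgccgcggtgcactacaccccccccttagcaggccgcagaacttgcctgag
Gapdh, glyceraldehyde-3-phosphate dehydrogenase, chr6:125165774-125166023, minus strand: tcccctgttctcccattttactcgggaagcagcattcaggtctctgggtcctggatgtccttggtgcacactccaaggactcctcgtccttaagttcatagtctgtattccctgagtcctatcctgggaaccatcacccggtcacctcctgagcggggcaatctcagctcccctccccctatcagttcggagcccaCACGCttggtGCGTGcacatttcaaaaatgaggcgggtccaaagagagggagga
Eno1, enolase, chr4:150236458-150236707, plus strand: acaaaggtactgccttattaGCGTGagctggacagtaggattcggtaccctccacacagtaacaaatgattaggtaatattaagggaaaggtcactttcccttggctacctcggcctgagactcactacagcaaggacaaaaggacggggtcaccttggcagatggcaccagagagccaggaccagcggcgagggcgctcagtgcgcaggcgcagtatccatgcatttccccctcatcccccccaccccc
Ldha, lactate dehydrogenase A, chr7:46845554-46845803, plus strand: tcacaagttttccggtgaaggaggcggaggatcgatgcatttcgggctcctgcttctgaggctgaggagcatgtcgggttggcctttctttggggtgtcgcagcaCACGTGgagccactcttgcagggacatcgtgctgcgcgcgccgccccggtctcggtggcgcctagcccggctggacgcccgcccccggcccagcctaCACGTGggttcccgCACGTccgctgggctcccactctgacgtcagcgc
Hif1a, the HIF-1 alpha subunit, chr12:73907617-73907866, plus strand: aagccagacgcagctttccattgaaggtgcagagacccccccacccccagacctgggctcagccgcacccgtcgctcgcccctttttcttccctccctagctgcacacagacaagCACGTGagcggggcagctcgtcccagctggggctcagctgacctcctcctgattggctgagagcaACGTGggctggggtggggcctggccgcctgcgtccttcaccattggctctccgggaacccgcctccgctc
Egln3, prolyl hydroxylase 3, chr12:54203875-54204124, minus strand: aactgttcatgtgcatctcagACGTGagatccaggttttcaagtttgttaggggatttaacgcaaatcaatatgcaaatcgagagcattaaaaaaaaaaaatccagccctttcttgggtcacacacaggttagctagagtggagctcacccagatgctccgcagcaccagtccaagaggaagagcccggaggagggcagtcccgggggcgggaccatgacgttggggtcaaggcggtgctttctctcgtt
Matches were counted on both strands, so 1 copy of CACGTG counts as 2 matches, here and in the shares below. Ldha had 5 matches, from 2 copies of CACGTG and 1 further core. Hif1a had 3 matches, from 1 copy of CACGTG and 1 further core. Pgam1 had 3 matches at separate places, Gapdh 2, and Eno1 and Egln3 1 each. A window was found for 31 of the 33 members (Ero1l under the symbol Ero1a), 44 windows in all, of which 36 (81.82%) held the core and 21 (47.73%) held it 2 or more times. Of 32851 mouse windows of the same length, 38.6% held the core, 16.73% held it 2 or more times and 6.02% held CACGTG. A match describes letters only, and no binding was measured.

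After filters on genes and mitochondrial reads and the removal of called doublets, 16857 WT cells and 14882 CCR2KO cells were kept, and 342 cell barcodes occurred in both libraries. A tag held between 56541715 and 94948946 reads. The members, the genes of related lists and Ccr2, 177 genes in all, were left out when the cells were clustered, and clusters were named from markers as alveolar macrophage-like and so on; the ending is left out of the gene accounts below. All 14 alveolar macrophage markers and all 14 interstitial macrophage markers were highest in their own class among the 8 classes described, as were 13 of 14 neutrophil, 12 of 12 alveolar fibroblast and 12 of 12 adventitial fibroblast markers. Labels were weaker for the Mmp12 Gpnmb macrophages (7 of 11), the activated fibroblasts (7 of 12) and the classical monocytes (4 of 9), whose cluster also carried markers of nonclassical monocytes. Cd63, Cd9, Lpl and Trem2 were not highest in the Mmp12 Gpnmb macrophages. The markers of that class summed to 22778 CPM there and to 19753 CPM in alveolar macrophages. Col1a1, Col3a1, Cthrc1, Lox and Spp1 were not highest in the activated fibroblasts. Markers of the activated fibroblasts summed to 16829 CPM in their class and to 16725.5 CPM in adventitial fibroblasts. Those of the classical monocytes summed to 13178 CPM in their class and to 12875 CPM in alveolar macrophages. Those of the interstitial macrophages summed to 19709 CPM in their class and to more, 24857 CPM, in conventional dendritic cells, which are outside the 8 classes. Ccr2 in classical monocytes was at 451 to 712 CPM in the WT tags (median 571) and at 0 to 179 CPM in the CCR2KO tags (median 57.8), with no overlap. In cells thinned to 5000 reads, fewer genes were detected in CCR2KO than in WT in each of the 8 classes, for example 1264 against 1322 in alveolar macrophages and 631 against 832 in monocytes. CPM stands for the reads of a gene scaled to a fixed total of reads of that class in that tag. It is not corrected for gene length, so a gene is compared between classes and not with another gene, and fewer reads in a class cannot be told apart from fewer cells that express the gene.

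Among the 8 classes described, the 5 myeloid classes had higher mean sums of the members than the 3 fibroblast classes. Summed over all 33 members, the Mmp12 Gpnmb macrophages, named from markers such as Mmp12 and Gpnmb, stood at 8066 ± 1138 CPM (SD, 16 tags). Alveolar macrophages (5958 ± 1034), neutrophils (5830 ± 647), classical monocytes (5170 ± 517) and interstitial macrophages (4754 ± 621) followed, each over 17 tags. Activated fibroblasts were at 3388 ± 686, adventitial fibroblasts at 2737 ± 403 and alveolar fibroblasts at 2298 ± 245. Single tags of the 5 myeloid classes overlapped one another: the lowest Mmp12 Gpnmb tag was at 5439 CPM and the highest alveolar macrophage tag at 7556 CPM. The lowest tag of these myeloid classes (3594 CPM, interstitial macrophages) lay above the highest alveolar fibroblast tag (2721 CPM), but below the highest activated (5231 CPM) and adventitial (3738 CPM) fibroblast tags. Conventional dendritic cells, myeloid cells outside the 8 classes, stood at 3995 ± 526.4 CPM, with a lowest tag of 2874 CPM. The reads for Gapdh, Aldoa and Pkm together made up 31.7% of this sum in alveolar fibroblasts and 50.3% in alveolar macrophages. These are levels across clusters of the same cells and are given without a test.

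**Figure D1:**
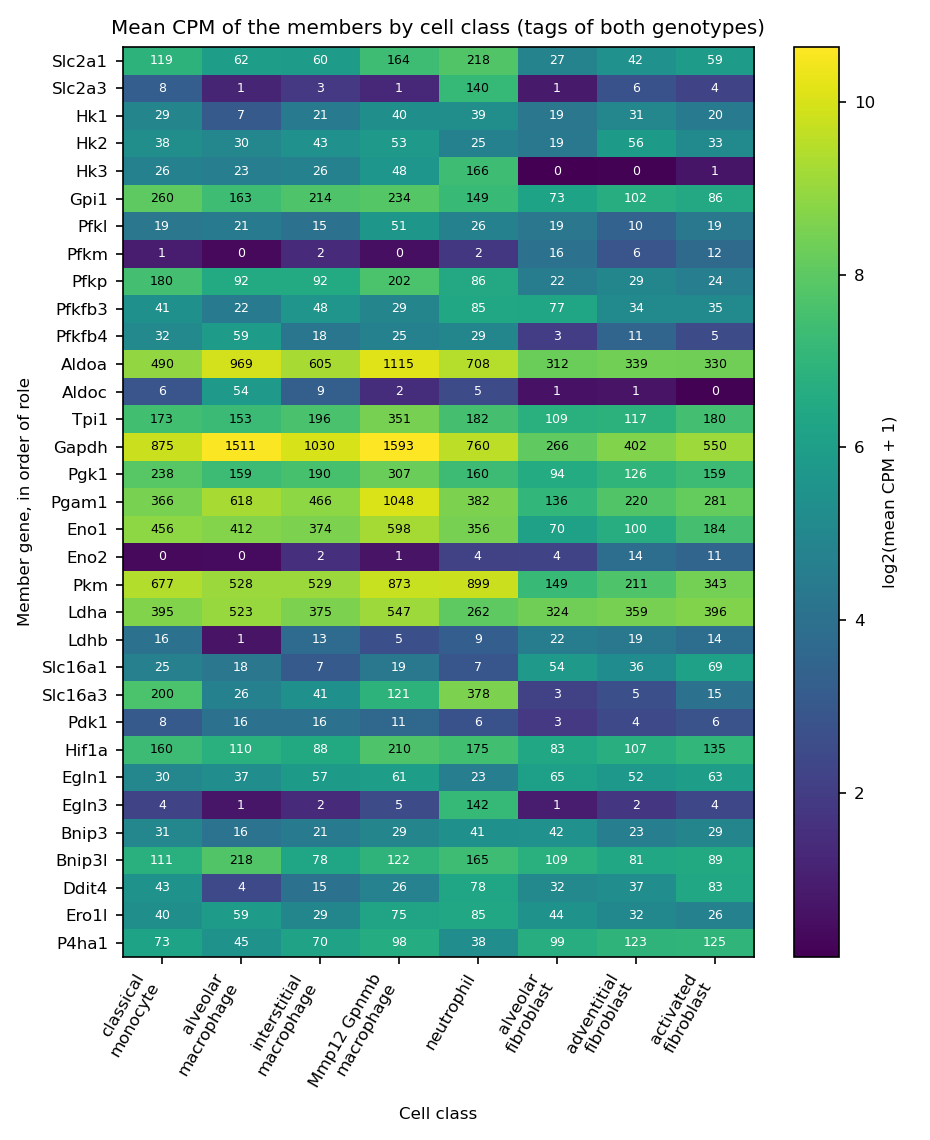
Mean CPM over tags of both genotypes for each member (rows, in order of role) in each of 8 cell classes (columns); the colour is log2(mean CPM + 1) and the printed number is the mean. Each row should be read across, not against other rows: Slc2a3, Hk3 and Egln3 stand out in neutrophils, and Gapdh, Pgam1 and Eno1 in Mmp12 Gpnmb macrophages.

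Counting for each member that reached 10 CPM the class with the highest mean among these 8, 11 members peaked in Mmp12 Gpnmb macrophages: Aldoa, Eno1, Gapdh, Hif1a, Hk1, Ldha, Pfkl, Pfkp, Pgam1, Pgk1 and Tpi1, that is, Hif1a and 10 enzymes of the path from glucose to lactate. For Hk1 and Ldha this class exceeded the next in 8 and 9 of 16 tags. Over all named classes Hif1a and Ldha were highest in T cells (228 and 555 CPM), Hk1 in large vessel endothelium (84.5 CPM) and Pfkp in conventional dendritic cells (299.5 CPM). Neutrophils had the highest mean for 8, among them both glucose transporters (Slc2a1, Slc2a3), the lactate exporter Slc16a3, Hk3, Pkm and Egln3. Alveolar fibroblasts led for 4 (Bnip3, Egln1, Ldhb, Pfkm) and alveolar macrophages for 4 (Aldoc, Bnip3l, Pdk1, Pfkfb4). Activated fibroblasts led for 3 (Ddit4, P4ha1, Slc16a1), adventitial fibroblasts for 2 (Eno2, Hk2) and classical monocytes for 1 (Gpi1). No share of all genes that peak in each class is given, so these counts are not read as a trait of the members. Over all named classes Ldhb was highest in alveolar type 2 cells (136 CPM) and Ddit4 in large vessel endothelium (221 CPM). Bnip3 and Bnip3l were highest in aerocyte endothelium (78.7 and 224 CPM), and Eno2 in conventional dendritic cells. Egln1, Ero1l and Pdk1 were highest in T cells (90.9, 85.2 and 41.7 CPM). Among the 8 classes, the leading class exceeded the next in 9 of 17 tags for Bnip3, Ddit4, Egln1, Eno2, P4ha1 and Pfkfb3. It did so in 9 of 16 tags for Ero1l and Gpi1, and in 8 of 16 for Hk2 and Pkm. For Slc2a3, Hk3 and Egln3 it did so in every tag. Pgam1 averaged 1048 CPM in Mmp12 Gpnmb macrophages against 618 in alveolar macrophages and 136 in alveolar fibroblasts. P4ha1, a collagen prolyl hydroxylase, averaged 125 CPM in activated and 123 CPM in adventitial fibroblasts, 99.3 CPM in alveolar fibroblasts, 98.1 CPM in Mmp12 Gpnmb macrophages and 44.8 CPM in alveolar macrophages.

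Within the same tag, classes were compared by the log2 ratio of CPM (each with 1 CPM added), and a gene was counted where its mean CPM in one of the classes reached 10. Mmp12 Gpnmb macrophages exceeded alveolar macrophages for 24 of 28 members by the median over 16 tags; the median of the members was 0.87, beside -0.20 for all 8450 genes counted. Slc2a1, the main glucose importer of most cells, ranged from 61.9 through a median of 160 to 254 CPM in the former and from 35.8 through 59.4 to 114 CPM in the latter, with a median ratio of 1.39. Hif1a spanned 84.2, 217 and 373 CPM (lowest, median, highest) against 61.4, 119 and 186 CPM, with a median ratio of 0.91. Both genes were higher in every tag although the ranges of the classes overlapped, which happened for 2 of 28 members and 1.22% of all genes. Aldoc, the brain-type aldolase, which reached 10 CPM in alveolar macrophages alone of this pair, was the 1 member lower in every tag, beside 3.85% of all genes: 0, 0.310 and 8.90 CPM in Mmp12 Gpnmb macrophages, with 8 of 16 tags at 0, and 19.2, 55.9 and 93.4 CPM in alveolar macrophages, with no overlap. With totals adjusted by TMM, neither Slc2a1 nor Hif1a was higher in every tag; TMM moved the median of all genes to -0.37 and that of the members to 0.71.

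The Mmp12 Gpnmb macrophages also exceeded interstitial macrophages for 23 of 28 members (median 0.57, beside -0.18 for all genes). Pfkp, the platelet-type phosphofructokinase, Slc2a1, Gapdh and Pkm, the pyruvate kinase, were higher in each of 16 tags, 4 of 28 members beside 0.652% of all genes, and no member was lower in every tag, beside 1.51% of all genes. Pfkp was at 77.4, 187 and 391 CPM against 26.7, 82.1 and 169 CPM (median ratio 1.18). Gapdh was at 1177, 1650 and 1941 CPM against 831, 998 and 1402 CPM (0.64). Pkm was at 542, 873 and 1246 CPM against 330, 522 and 719 CPM (0.56), and Slc2a1 had a median ratio of 1.09. The ranges over tags overlapped for each of these 4 genes, while the sign within a tag did not change.

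Interstitial and alveolar macrophages were close to each other. Of 29 members, 15 were higher in interstitial macrophages (median 0.10, beside -0.002 for all genes), none in every tag, beside 3.31% of all genes. Pfkfb4, Bnip3l and Aldoa were lower in every tag, 3 of 29 members beside 3.43% of all genes. Pfkfb4 makes the sugar phosphate that activates phosphofructokinase, and was at 0, 15.3 and 42.7 CPM in interstitial against 20.9, 53.8 and 122 CPM in alveolar macrophages (median ratio -2.19). Bnip3l, a receptor for the removal of mitochondria, was at 6.81, 79.0 and 166 CPM against 148, 213 and 301.7 CPM (-1.55). Aldoa, the main aldolase, was at 220, 639 and 909 CPM against 718, 970 and 1183 CPM (-0.65). The ranges overlapped for all 3.

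**Figure D2:**
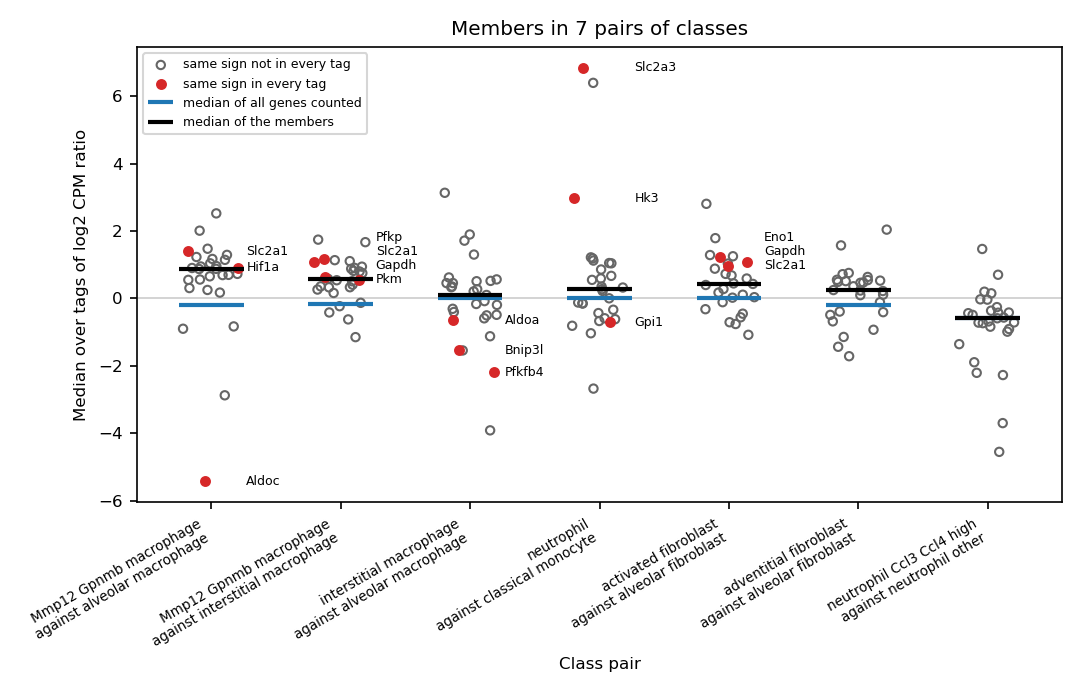
Median over tags of the log2 CPM ratio (y axis) of each member in 7 pairs of classes (x axis); red points have the same sign in every tag, black bars mark the median of the members and blue bars that of all genes counted. The members' median lies above that of all genes for Mmp12 Gpnmb macrophages against alveolar macrophages (0.87 beside -0.20), and the ratio of Hk3 in neutrophils is 2.97. Ratios of Slc2a3 and Aldoc rest on the added 1 CPM in tags without a read.

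Neutrophils differed most from monocytes in a glucose transporter, a hexokinase and a prolyl hydroxylase. Against classical monocytes 16 of 29 members were higher (median 0.27, beside 0 for all genes). Slc2a3, the high-affinity glucose transporter, was at 0.763, 133 and 292 CPM in neutrophils and at 0, 0 and 111 CPM in monocytes, 10 of whose 17 tags had no read. Most of these were CCR2KO tags, and CCR2KO had 181 monocytes in all beside 1152 in WT. Hk3, a hexokinase of myeloid cells, was at 35.1, 164 and 427 CPM against 0, 25.9 and 100 CPM. Both were higher in every tag, 2 of 29 members beside 2.88% of all genes. Slc2a3 reached a mean of 10 CPM in neutrophils alone of this pair, and its ratio is set by the added 1 CPM in tags without a read, so none is given; Hk3 had a median ratio of 2.97. Gpi1, the glucose-6-phosphate isomerase, was the 1 member lower in every tag (-0.71), beside 3.22% of all genes; its tags spanned 23.4, 150.2 and 254 CPM in neutrophils and 38.9, 260.2 and 441 CPM in monocytes, a wide overlap, and under TMM it was no longer lower in every tag. Egln3 was higher in 16 of 17 tags: 4.56, 162 and 302.1 CPM in neutrophils against 0, 0.301 and 14.6 CPM in monocytes. No CCR2KO monocyte tag had an Egln3 read.

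Mean isozyme shares differed between cell types. Shares below are the percentage of the reads of a gene family that fell on one gene, averaged over tags, without correction for length. Single tags spread widely for some genes. Hk3 in neutrophils ran from 20.5% to 95.9%. Slc16a3 ran from 1.85% to 100% in monocytes and from 0% to 100% in interstitial macrophages, but from 91.2% to 100% in neutrophils. Hk3 took 71.6% of hexokinase reads in neutrophils, 38.4% in alveolar macrophages and 0.2% in alveolar fibroblasts, where Hk2 (54.7%) and Hk1 (45.1%) made up the rest. Slc2a3 took 38.5% of the reads of the pair Slc2a1 and Slc2a3 in neutrophils and at most 8.7% in the other 7 classes. Among monocarboxylate transporters, Slc16a3, the form adapted to lactate export, took 98.2% in neutrophils, 88.1% in monocytes, 84.1% in Mmp12 Gpnmb macrophages, 78.5% in interstitial macrophages and 58.4% in alveolar macrophages. Fibroblasts used Slc16a1, which carries lactate both ways: it took 93.3% in alveolar, 86.4% in adventitial and 82.6% in activated fibroblasts. Pfkm, the muscle phosphofructokinase, took 28.3%, 16.5% and 21.6% in the same 3 fibroblast classes and at most 2.0% in the myeloid ones. Alveolar macrophages differed from the other 7 classes in the mean shares of the regulatory kinases, with 72.4% of the reads on Pfkfb4 and 27.6% on Pfkfb3. Single tags overlapped: Pfkfb4 took 28.2% to 98.6% in alveolar macrophages, and 0% to 100% in both monocytes and Mmp12 Gpnmb macrophages. Ldha took between 93.5% (alveolar fibroblasts) and 99.9% (alveolar macrophages) of lactate dehydrogenase reads, and Eno1 between 88.0% (adventitial fibroblasts) and 99.9% of enolase reads.

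Among neutrophils, sub-clusters 2 and 4, in which both Ccl3 and Ccl4 had reads in over 60% of cells (81.2% and 87.9% for Ccl3), were compared with the rest; the limit of 60% was chosen after the data were seen, and both chemokine genes are made by activated neutrophils. Members were not set apart by this split: 4 of 27 had a median ratio above 0, the median was -0.59 beside -0.58 for all genes, and none was higher or lower in every tag, beside 0.294% and 0.33% of all genes. Hk3 was higher in 14 of 17 tags (median ratio 1.46) and Slc16a3 lower in 14 of 17 (-1.36). The sub-cluster led by Stfa2, Retnlg and Mmp8, the last a collagenase of neutrophil granules, had the highest mean of Slc16a3 (890.1 ± 514 CPM, 16 tags) and of Slc2a3 (329 ± 286). Sub-cluster 4, with the fewest cells of the 5 whose levels were computed (141), had 22.8 ± 53.6 CPM of Slc16a3 over 6 tags, and 175 ± 149 CPM of Gapdh where the other 4 averaged 527 to 937. In 45.4% of its cells an S100a8 read was found, beside 76.3% to 96.9% in those 4.

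Activated fibroblasts, marked by Tnc and Sfrp1, had higher levels of most members than alveolar fibroblasts: 20 of 27 had a median ratio above 0 (median 0.43, beside 0.02 for all genes). Eno1 was at 112, 170 and 364 CPM against 34.5, 67.4 and 109 CPM, with no overlap of the tags and a median ratio of 1.24. Gapdh was at 349.6, 543 and 886 CPM against 150, 258 and 394 CPM (1.08). Slc2a1 was at 24.5, 52.4 and 112 CPM against 0.770, 26.3 and 42.8 CPM (0.96); for Gapdh and Slc2a1 the ranges overlapped. These 3 of 27 members were higher in every tag, beside 3.19% of all genes, and none was lower in every tag, beside 3.77%. In cells thinned to equal reads 1 member was higher in every tag. Adventitial fibroblasts exceeded alveolar fibroblasts for 18 of 27 members (median 0.25, beside -0.18), with none higher or lower in every tag, beside 2.84% and 3.55% of all genes.

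Alveolar macrophages showed the clearest change of members between tag blocks. In WT, 3 of 31 members tested changed between the 3 blocks by edgeR's quasi-likelihood F test with Benjamini-Hochberg adjustment over all genes, beside 1.98% of all genes. Pgam1 was at 421, 389 and 366 CPM in block 1, at 512, 465 and 413 CPM in block 2 and at 908, 692 and 1015 CPM in block 3 (adjusted p = 0.00038). Pkm was at 380, 397 and 414 CPM, then at 394, 339 and 375 CPM, and in block 3 at 671, 606 and 669 CPM (adjusted p = 0.0013). Gapdh was at 1314, 1276 and 1316 CPM, then at 1254, 1170 and 972 CPM, and in block 3 at 1780, 2011 and 2068 CPM (adjusted p = 0.00089). For each of these 3 enzymes every tag of block 3 lay above every tag of blocks 1 and 2, which describes the tags that the test used. Of the 31 members, 19 had their highest mean in block 3. No share of all genes that peak there is given, so this count is not read as a result about the members. The 3 calls were kept in each fit that left out 1 WT tag, with adjusted p up to 0.012.

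In CCR2KO alveolar macrophages 4 of 31 members changed between blocks, beside 1.23% of all genes, and for Pgam1 and Pkm block 2 was high as well as block 3. Pgam1 was at 481, 367 and 495 CPM in block 1, at 751, 837 and 893 CPM in block 2 and at 697 and 805 CPM in block 3 (adjusted p = 0.0036). Pkm was at 397, 403 and 498 CPM, then at 670, 754 and 618 CPM, and in block 3 at 628 and 756 CPM (adjusted p = 0.0042). For both genes every tag of blocks 2 and 3 lay above block 1. Gapdh was at 1340, 1366 and 1143 CPM, at 1505, 1556 and 1484 CPM, and at 2015 and 2106 CPM (adjusted p = 0.010), so the 3 blocks did not overlap. Hif1a was at 61.4, 65.8 and 75.5 CPM, at 124, 130 and 93.3 CPM, and at 186 and 107 CPM (adjusted p = 0.046), with block 1 below all other tags. In WT, Hif1a was at 75.3, 84.7 and 70.1 CPM in block 1, at 132, 126 and 133 CPM in block 2 and at 120, 119 and 162 CPM in block 3, also with block 1 below the rest, but it did not pass the test. Leaving out 1 CCR2KO tag at a time, Hif1a lost the call in 5 of 8 fits (adjusted p up to 0.18) and Gapdh in 2 of 8 (up to 0.30), and with cells thinned to equal reads 1 member stayed called.

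**Figure D3:**
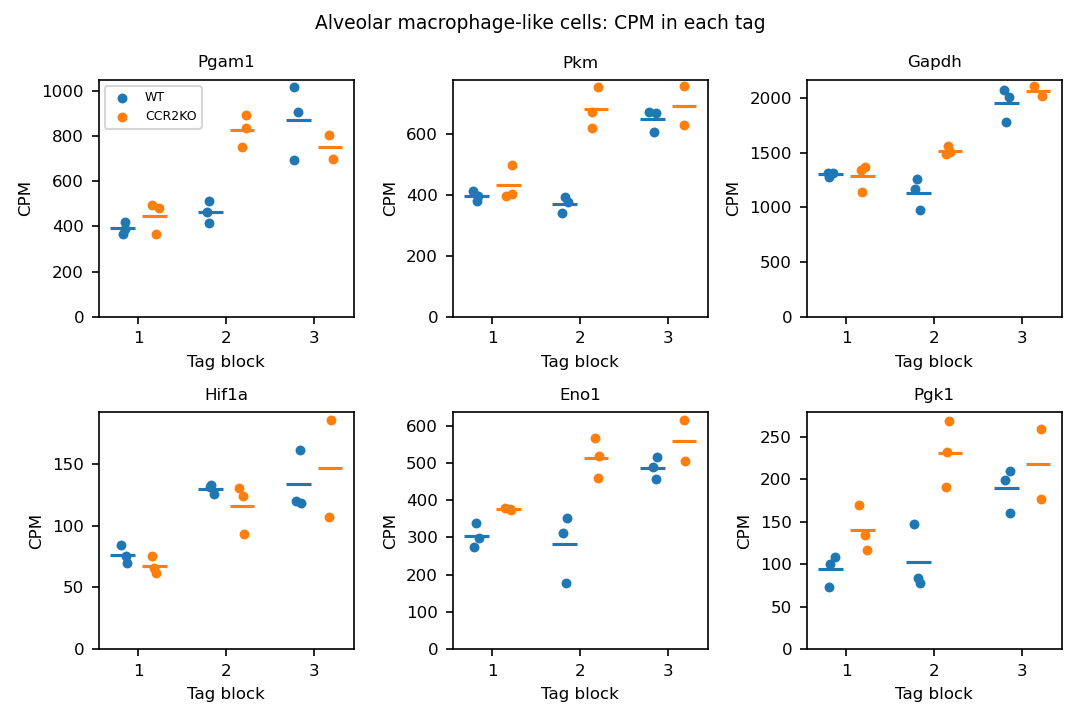
CPM (y axis, from 0) of 6 members in alveolar macrophage-like cells by tag block (x axis) for WT (blue) and CCR2KO (orange); each point is a tag and each bar the mean of a block. Pgam1, Pkm and Gapdh are highest in block 3 of WT (692 to 1015, 606 to 671 and 1780 to 2068 CPM), and Pgam1 and Pkm are also high in block 2 of CCR2KO (751 to 893 and 618 to 754 CPM).

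The genotypes were then compared within blocks of the same number, a comparison chosen after the data were seen. In block 2, 4 of 31 members were higher in CCR2KO alveolar macrophages, beside 0.278% of all genes that were higher there. The log2 changes were 0.88 for Pkm (SE 0.12, adjusted p = 0.00061), 0.84 for Pgam1 (SE 0.15, adjusted p = 0.0069), 0.87 for Eno1 (SE 0.19, adjusted p = 0.033) and 1.16 for Pgk1, phosphoglycerate kinase (SE 0.26, adjusted p = 0.040). Eno1 was at 352, 313 and 178 CPM in WT and at 459, 518 and 566 CPM in CCR2KO. Pgk1 was at 147, 83.2 and 78.2 CPM in WT and at 232, 269 and 190 CPM in CCR2KO. For these 4 enzymes the tags of block 2 did not overlap between genotypes. The test used these same tags, so the lack of overlap is not separate support. No member was called in block 1 or block 3, but with cells thinned to equal reads Pfkp was higher in CCR2KO in block 3 (log2 change 2.34, SE 0.50, adjusted p = 0.036). The test of whether the genotype difference itself varied between blocks called no member, beside 0.16% of all genes; Pkm had an adjusted p of 0.093 and Pgam1 of 0.13, and both were called when genes of low count were not filtered out. Leaving out 1 tag of block 2 gave between 1 and 5 members called. Pkm was called in all 6 of these fits, Pgam1 in 5, Eno1 in 2 and Pgk1 in 1.

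Other features of these cells moved with the blocks. The summed level of 11 Mmp12 Gpnmb macrophage markers, 1 of which had no read in CCR2KO block 3, was 10133 to 11779, 13498 to 24412 and 15069 to 21919 CPM in WT blocks 1 to 3, and 13535 to 17615, 35090 to 39579 and 12205 to 18919 CPM in CCR2KO. The 14 alveolar macrophage markers stayed between 19589 and 30476 CPM. Immediate early and dissociation genes (16 genes) had medians of 7548, 6486 and 4021 CPM in WT and of 7370, 4269 and 4517 CPM in CCR2KO. The summed level of 6 proliferation markers had medians of 447, 435 and 658 CPM in WT and of 771, 515 and 788 CPM in CCR2KO. The median reads per cell were 69674, 99930 and 106173 in WT and 78843, 128168 and 99081 in CCR2KO. The 9 alveolar type 2 cell markers had medians of 10739, 15352 and 6857 CPM in WT and of 12235, 10819 and 5053 CPM in CCR2KO. The part of each of these in the change of Pgam1, Pkm, Gapdh and Hif1a was not tested.

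Other genes of the pathways in alveolar macrophages were read from related lists. None of 14 tested other glycolysis genes and isozymes changed between blocks in either genotype. Of 33 other hypoxia response genes tested, 5 changed in WT and 2 in CCR2KO, beside 1.98% and 1.23% of all genes. Trf, transferrin, had block means of 559, 797 and 267 CPM in WT and of 625.2, 607 and 393 CPM in CCR2KO. Hilpda, which promotes lipid droplets under low oxygen, had means of 364, 541 and 205 CPM in WT, and Hmox1, heme oxygenase 1, of 375, 791 and 1167 CPM in CCR2KO. Trf and Hilpda were thus lowest in block 3 of WT, where the 3 enzymes were highest. Of the remaining 3 in WT, named after their values were seen, Angptl4 was lowest in block 3, whereas Mif and Higd1a were highest there. Tkt, the transketolase of the pentose phosphate pathway, was called in WT with means of 303.8, 365 and 490.2 CPM, 1 of 8 genes of that list. Pygl, the liver-type glycogen phosphorylase, had means of 246, 242 and 103 CPM in WT, 1 of 11 glycogen and gluconeogenesis genes. None of 30 genes of pyruvate entry and the citric acid cycle changed in either genotype.

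In activated fibroblasts members changed between blocks about as often as all genes by edgeR's test. In WT 1 of 32 members changed, beside 4.14% of all genes, and in CCR2KO 2 of 32, beside 3.53%. Ddit4, an inhibitor of mTORC1 signalling that low oxygen induces, was at 95.5, 54.2 and 122 CPM in WT block 1, at 111, 111 and 83.1 CPM in block 2 and at 39.0, 44.3 and 29.6 CPM in block 3 (edgeR adjusted p = 0.013), with block 3 below all other tags. In CCR2KO it was at 37.1, 57.0 and 62.6 CPM, at 148, 111 and 129 CPM and at 83.0 and 93.5 CPM (adjusted p = 0.041), with no overlap between the blocks. Eno1 in CCR2KO was at 182, 116 and 131 CPM, at 364, 280 and 251 CPM and at 112 and 170 CPM (adjusted p = 0.0075), with block 2 above all other tags. In WT, Eno1 stayed between 133 and 197 CPM. In CCR2KO 21 of 32 members had their highest mean in block 2, a count for which no share of all genes is given. Without 1 tag, Ddit4 lost its call in 6 of 8 fits in CCR2KO (adjusted p up to 0.16) and in 2 of 9 in WT (up to 0.087), and Eno1 in 1 of 8 (0.062).

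Ldha within block 2 of activated fibroblasts was at 292, 316 and 299 CPM in WT and at 659, 565 and 529 CPM in CCR2KO, with no overlap (log2 change 0.90, SE 0.16, edgeR adjusted p = 0.013). It was the 1 member called higher there, of 32, beside 0.143% of all genes, and the test of variation between blocks called no gene at all (0% of all genes; adjusted p of Ldha 0.32). The lack of overlap describes the tags that the test used and is not separate support. The call of Ldha was lost in 5 of 6 fits without 1 tag. Immediate early and dissociation genes in this class had medians of 13299, 14723 and 7011 CPM in WT blocks 1 to 3 and of 14156, 10174 and 8318 CPM in CCR2KO. Of these genes 14 of 16 changed in WT and 9 of 16 in CCR2KO, beside 4.14% and 3.53% of all genes. The 6 proliferation markers had medians of 479, 338 and 1128 CPM in WT and of 298, 983 and 973 CPM in CCR2KO. The 12 alveolar fibroblast markers had medians of 4634, 4316 and 2253 CPM in WT and of 4969, 2267 and 2334 CPM in CCR2KO. Their part in the changes of Ddit4, Eno1 and Ldha was not tested. Among 36 other hypoxia response genes tested, 3 changed in WT and 4 in CCR2KO, beside 4.14% and 3.53% of all genes. Angptl4, an inhibitor of lipoprotein lipase, had block means of 155, 146 and 327 CPM in WT and of 349, 161 and 300 CPM in CCR2KO. Bhlhe40, a transcriptional repressor that low oxygen induces, had means of 295, 338 and 139 CPM in WT and of 276, 331 and 124 CPM in CCR2KO.

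**Figure D4:**
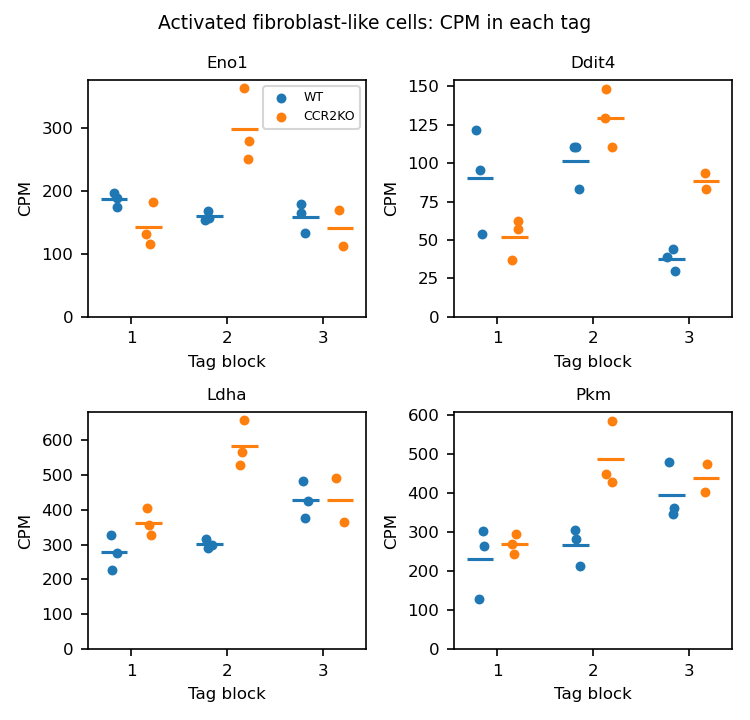
CPM (y axis, from 0) of 4 members in activated fibroblast-like cells by tag block (x axis) for WT (blue) and CCR2KO (orange); each point is a tag and each bar the mean of a block. Eno1 and Ddit4 peak in block 2 of CCR2KO (251 to 364 and 111 to 148 CPM), and Ddit4 is lowest in block 3 of WT (29.6 to 44.3 CPM).

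In the other 6 classes no member changed between blocks by edgeR's test. The share of all genes called was 0.00807% in WT and 0.468% in CCR2KO classical monocytes, 0.158% and 0.324% in interstitial macrophages, and 0.00864% and 0.181% in neutrophils. It was 0.119% and 0.053% in alveolar fibroblasts, 0.00718% and 0.0144% in adventitial fibroblasts, and 0.225% and 0.873% in Mmp12 Gpnmb macrophages, where CCR2KO had blocks 1 and 2 only because tag 7 held 1 such cell. At an unadjusted p under 0.05 there were 0 of 31 members in WT monocytes (3.08% of all genes) and 12 of 31 in CCR2KO monocytes (24.9%). Interstitial macrophages had 6 of 32 (5.55%) and 9 of 32 (13%), Mmp12 Gpnmb macrophages 4 of 30 (6.43%) and 5 of 30 (20.9%), and neutrophils 2 of 32 (7.62%) and 2 of 32 (9.21%) in WT and CCR2KO. Alveolar fibroblasts had 4 of 31 (7.67%) and 1 of 31 (6.3%), and adventitial fibroblasts 3 of 31 (5.22%) and 1 of 31 (6.39%). DESeq2 called 4 of 31 members in WT Mmp12 Gpnmb macrophages, beside 9.62% of all genes, 1 of 30 in WT interstitial macrophages (1.63%) and 1 of 30 in CCR2KO neutrophils (2.88%). It called 0 in the other combinations of these 6 classes with genotype. There it called 2.22% and 0.111% of all genes in WT and CCR2KO monocytes, 1.53% in CCR2KO interstitial macrophages, 0.367% in CCR2KO Mmp12 Gpnmb macrophages, 0.67% in WT neutrophils, 0.658% and 0.843% in alveolar fibroblasts and 0.348% and 0.299% in adventitial fibroblasts.

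Over all tags, no member differed between CCR2KO and WT in any of the 8 classes by edgeR's quasi-likelihood test with Benjamini-Hochberg adjustment. The share of all genes called was 4.08% in classical monocytes, 0.373% in alveolar, 0.277% in interstitial and 0.206% in Mmp12 Gpnmb macrophages, 0.107% in neutrophils, and 0.678%, 0.677% and 0.276% in alveolar, adventitial and activated fibroblasts. At an unadjusted p under 0.05 there were 3 of 28 members in monocytes (13.3% of all genes), 7 of 28 in alveolar macrophages (8.44%), 1 of 29 in interstitial macrophages (6.97%) and 0 of 28 in Mmp12 Gpnmb macrophages (6.07%). There were 3 of 27 in neutrophils (5.41%), 4 of 28 in alveolar fibroblasts (9.47%), 2 of 28 in adventitial fibroblasts (8.36%) and 4 of 31 in activated fibroblasts (7.31%). DESeq2 called 2 of 28 members in alveolar macrophages (Ldha and Slc16a1), beside 1.08% of all genes, and 2 of 28 in alveolar fibroblasts (Hif1a and Ldha), beside 1.81%. It called 0 members in the other 6 classes, beside 8.54% of all genes in monocytes, 0.933% in interstitial and 0.947% in Mmp12 Gpnmb macrophages, 0.306% in neutrophils, 1.86% in adventitial and 0.852% in activated fibroblasts. With the tag block as a term in edgeR, Ldha was called in alveolar macrophages (log2 change 0.33, adjusted p = 0.012) and in alveolar fibroblasts (0.52, adjusted p = 0.025), and with same-numbered tags as a replicate block it was called in alveolar fibroblasts (0.50, adjusted p = 0.044).

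The smallest adjusted p-values over the 8 classes belonged to Hif1a, Ldha and Slc16a1. Ldha in alveolar macrophages was at 416, 461 and 550 CPM (lowest, median and highest of 9 tags) in WT and at 519, 566 and 658 CPM in the 8 tags of CCR2KO, with a log2 change of 0.31 (SE 0.08, edgeR adjusted p = 0.12; DESeq2 adjusted p = 0.044). Slc16a1 there was at 3.64, 10.9 and 21.2 CPM in WT and at 20.2, 24.7 and 35.5 CPM in CCR2KO (log2 change 1.27, SE 0.34, edgeR adjusted p = 0.13; DESeq2 adjusted p = 0.022). The ranges of both genes overlapped at their edges. In alveolar fibroblasts Ldha was at 201, 258 and 379 CPM in WT and at 310, 356 and 495 CPM in CCR2KO (log2 change 0.46, SE 0.14, edgeR adjusted p = 0.17). Hif1a had a log2 change of 0.62 there (SE 0.17, edgeR adjusted p = 0.12; DESeq2 adjusted p = 0.034). In neutrophils Slc16a3 was at 325, 371 and 717 CPM in WT and at 192, 267 and 444 CPM in CCR2KO (log2 change -0.67, SE 0.24, edgeR adjusted p = 0.69). Counted over the members tested, 26 of 31 were higher in CCR2KO activated fibroblasts (median log2 change 0.22, beside -0.001 for all genes) and 6 of 28 in monocytes (median -0.39, beside -0.18). With DESeq2's size factors in edgeR the median of all genes shifted from -0.18 to 0.07 in monocytes and that of the members to -0.12, with no member at an unadjusted p under 0.05. In Mmp12 Gpnmb macrophages the same change of scaling turned the members' median from -0.03 to 0.14, while that of all genes moved from -0.11 to 0.05.

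**Figure D5:**
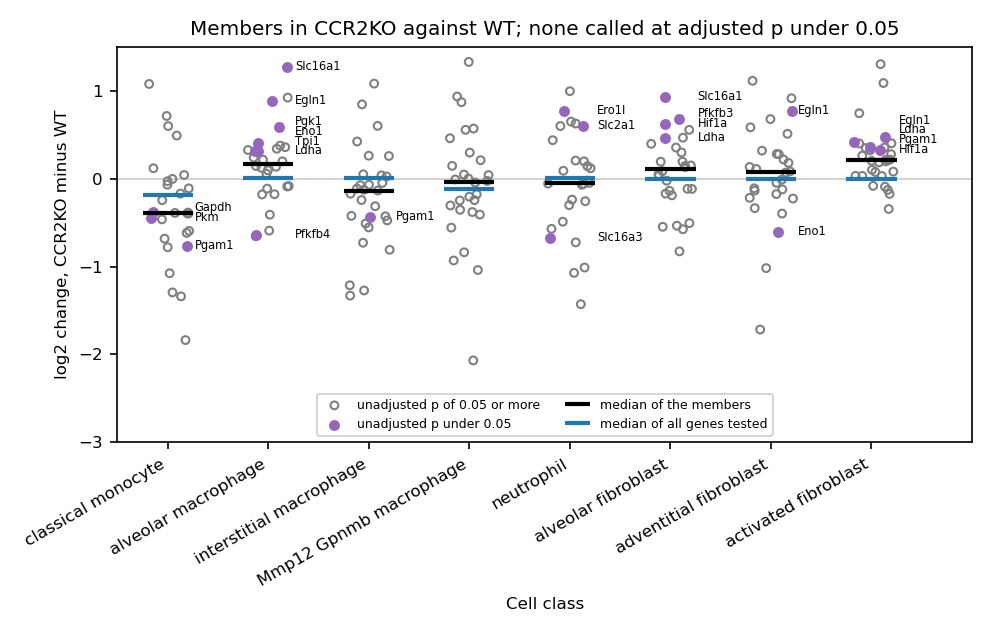
log2 change of each tested member in CCR2KO against WT (y axis) in 8 cell classes (x axis); filled points have an unadjusted p under 0.05, black bars mark the median of the members and blue bars that of all genes tested. No member passed the adjusted threshold; the members' median is 0.22 in activated fibroblasts and -0.39 in classical monocytes.

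Other genes of the pathways differed between genotypes in few places. Of 27 other hypoxia response genes tested in interstitial macrophages 2 fell in CCR2KO: Mif, a cytokine gene, and Vegfa, the vascular growth factor. Of all genes, 0.277% were called there in either direction. Mif averaged 403 CPM in WT and 235 CPM in CCR2KO, a log2 change of -0.78 with an SE of 0.15 (edgeR, adjusted p = 0.018). Vegfa averaged 105 CPM and 20.0 CPM, a log2 change of -2.40 with an SE of 0.46 (edgeR, adjusted p = 0.018). In monocytes 2 of 25 fell, Plod1 from 25.8 to 0.428 CPM and Jmjd6 from 39.0 to 1.83 CPM, beside 4.08% of all genes called in either direction. Pgm2 of the glycogen list fell there from 16.2 to 0.239 CPM. CCR2KO had 181 monocytes beside 1152 in WT. In Mmp12 Gpnmb macrophages 1 of 26 fell, Ankrd37, from 18.2 to 0.0619 CPM, with 150 CCR2KO cells beside 998. There 0.206% of all genes were called in either direction. Immediate early and dissociation genes were higher in CCR2KO for 4 of 16 in monocytes, among them Nr4a1 (log2 change 0.99) and Zfp36 (0.65), beside 4.08% of all genes called in either direction. Nr4a1 was also on the list of nonclassical monocyte markers, some of which this cluster carried. The make-up of the cluster in each genotype was not tested. In alveolar fibroblasts 1 of 16 was higher (Nr4a1, 0.60), beside 0.678% of all genes called in either direction. No gene of the lists of other glycolysis genes, HIF regulation, the pentose phosphate pathway, pyruvate entry and the citric acid cycle, or mTORC1 and energy sensing was called between genotypes in any of the 8 classes by edgeR.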

How the data were processed

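The authors deposited 1 table of raw counts per genotype, with cells and their hashtags, and per the labels the cells were captured on a BD Rhapsody system. The tools named in the submitters' processing notes are Bowtie2 2.4.2, cutadapt 2.10 and R 3.6.3, and the build is GRCm38; the counting rule, annotation and use of strand are not given in the sources used here. The deposited counts look like reads and not molecules, which the labels do not state: the median entry above 0 was 10 and 21.65% of such entries were 1. They are called reads throughout. Reads of Gapdh, Eno1, Pgk1, Ldha, Tpi1 and Pgam1, which have near-identical pseudogenes, are uncertain to that extent. Of the deposited tables, 2 columns were not assigned to a sample and not used, and cells that the tables name as doublets (680 in WT and 531 in CCR2KO) were left out.

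Cells entered with 200 genes or more and no more than 25% of reads from mitochondrial genes, and doublets called by Scrublet (370 in WT and 336 in CCR2KO) were removed. Cells were clustered with scanpy 1.11.5 (2000 variable genes, 40 components, 20 neighbours, Leiden resolution 1.5). A name needed at least 3 of its markers among the top 100 genes of a cluster and 1.5 times as many as the next name; 1 of 30 clusters stayed unnamed. Reads were summed per tag and class, and sums of fewer than 10 cells were left out. Genotype and block effects were tested with edgeR 4.0.16 (TMM, quasi-likelihood, Benjamini-Hochberg over all genes, called at an adjusted p under 0.05), after tests on simulated data. DESeq2 1.42.0, other scaling, no filter on low counts, clustering resolution 0.8, stricter cell filters, cells thinned to 5000 reads, a tag block term, and leaving out each tag were alternatives. Class levels and class pairs are described without a test. Members named with values are those called, in each class pair up to 4 in each direction with the same sign in every tag, and isozymes by level; of each list, the 2 genes with the smallest p among those called are named. Other genes named were chosen after their values were seen. Sums of a class need 10 cells in a tag, and 30 was an alternative. The members and lists were chosen with earlier results of these data known.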

Additional observations from a re-analysis of the deposited data

Results flagged for a closer look

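The summed level of the members in WT adventitial fibroblast-like cells of tag 4 was 3577 CPM, while the other WT tags lay between 2351 and 2889 CPM. The gap from this tag to its nearest neighbour was 0.561 of the whole range, above the critical value of 0.493 for 9 samples by Dixon's test. It was the 1 such value in 28 groups of tags examined, and chance alone marks about 1 in 20 groups.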

How the results depend on the processing

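No log2 genotype difference recomputed for single members, and no median of a class pair, changed sign under the alternatives computed for it; the sign of block differences was not followed. Other uncalled genotype differences did turn: with thinned cells the summed level of WT against CCR2KO turned from 8025 and 8119 to 8271 and 7428 CPM in Mmp12 Gpnmb macrophages, from 5856 and 5800 to 5865 and 5903 CPM in neutrophils, and from 2745 and 2728 to 2431 and 2522 CPM in adventitial fibroblasts, and the RLE factors turned the members' median in Mmp12 Gpnmb macrophages from -0.03 to 0.14. Members called between genotypes became 2 in alveolar macrophages and 2 in alveolar fibroblasts with DESeq2, 1 in each with a tag block term, 1 in monocytes with no filter on low counts, and 1 in alveolar fibroblasts with the replicate block (Ldha, adjusted p = 0.0443). The labels give no pairing by tag number, and in no class did every same-numbered pair correlate above 0.1; 6 of 8 did in alveolar macrophages (-0.013 to 0.368) and 6 of 8 in activated fibroblasts (0.045 to 0.482). CCR2KO tags correlated best with their own number for 1 to 3 of 7 or 8 tags per class, and the replicate block changed no other count. Members called between blocks with DESeq2 became 7 in WT alveolar macrophages, 1 in WT interstitial macrophages, 4 in WT Mmp12 Gpnmb macrophages, 1 in CCR2KO neutrophils, and 2 (WT) and 9 (CCR2KO) in activated fibroblasts. With no filter they became 5 in WT alveolar macrophages and 5 in CCR2KO activated fibroblasts. With thinned cells they became 2 in CCR2KO monocytes, 1 in CCR2KO alveolar macrophages, 1 in CCR2KO Mmp12 Gpnmb macrophages and 2 in WT activated fibroblasts, which also had 2 at resolution 0.8. Apart from the DESeq2 shares given above for the other classes, no share of all genes stands beside these block counts. None stands beside the counts without 1 tag that follow. These counts are therefore not read as results about the members. The comparisons chosen after seeing the data moved as well. With thinned cells, block 2 gave 2 of 27 members in alveolar macrophages, beside 98 of 7931 genes called in either direction. In activated fibroblasts it gave 0 of 27, beside 67 of 10442 genes. With no filter, the interaction gave 2 of 33 members in alveolar macrophages, beside 73 of 22216 genes. Leaving out 1 tag gave 0 to 1 members for genotype in monocytes and for blocks in CCR2KO monocytes, 3 to 5 in WT alveolar macrophages, 0 to 2 in CCR2KO Mmp12 Gpnmb macrophages, 0 to 2 (WT) and 0 to 4 (CCR2KO) in activated fibroblasts, and in block 2, 1 to 5 in alveolar macrophages and 0 to 1 in activated fibroblasts. Without mitochondrial and ribosomal reads in the total, the summed level was 6202 CPM in monocytes, 7054 in alveolar, 5738 in interstitial and 9551 in Mmp12 Gpnmb macrophages, 6266 in neutrophils, 2696 in alveolar, 3281 in adventitial and 4140.3 in activated fibroblasts. A smaller total raises every CPM. Neutrophils and alveolar macrophages, at 5830 and 5958 CPM with all reads, stood further apart without these reads. Why the other alternatives moved the results was not tested. Interstitial and Mmp12 Gpnmb macrophages have no value at resolution 0.8, where their clusters merged without a name.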
